A study of Mus musculus with 12 samples.

Results

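The aryl hydrocarbon receptor (AhR) is a ligand-activated transcription factor. It is held in the cytoplasm by a chaperone complex containing Hsp90, moves to the nucleus on binding a ligand, pairs with Arnt and switches on genes such as Cyp1a1 and Cyp1a2, which encode oxidising enzymes of foreign compounds. In liver it is best known for these enzymes, and it is also expressed in cells other than hepatocytes.

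The genotype effect common to both diets was measured by RNA-seq in whole livers of male C57BL/6 mice. It was estimated from all 12 of the 12 libraries of the series, 6 labelled Ahr HKO against 6 labelled WT. Ahr HKO mice carried floxed Ahr alleles (Ahr fl/fl, loxP sites around exon 2) and a Cre driven by the albumin promoter, Alb-Cre, which acts in hepatocytes, and WT mice were Ahr fl/fl littermates without Cre. Each genotype was fed a Lieber-DeCarli liquid diet for 5 weeks, starting at 10 to 12 weeks of age. It was given either with ethanol at 5% of volume and 36% of calories (EtOH) or as an isocaloric control (con), so the groups were WT con, Ahr HKO con, WT EtOH and Ahr HKO EtOH, with 3 livers each. The floxed alleles were present in every mouse and Cre in the Ahr HKO mice alone, so Cre and the deletion cannot be told apart, and other liver cells kept Ahr.

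The libraries held 46306518 to 74336255 reads on genes. Of 24532 genes in the table, 14038 had enough reads to be tested. Genotype was tested over both diets with diet as a covariate, and a gene was called at an adjusted p below 0.05 with a change above 1.5-fold. Levels are given as CPM, read counts scaled to the size of each library, and 3 reads correspond to 0.0425 to 0.0676 CPM. Libraries of one group resembled each other closely, with a mean Pearson r across genes of 0.984 to 0.991 with their own group, and none stood apart from its group.

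Ahr itself was examined first. Its level was 20.1, 16.6 and 18.3 CPM in the WT con livers and 65.5, 41.3 and 63.3 CPM in the Ahr HKO con livers. On ethanol it was 30.5, 20.8 and 23.4 CPM in WT and 41.8, 32.1 and 24.7 CPM in Ahr HKO. Every Ahr HKO liver held more Ahr reads than every WT liver on control diet, whereas on ethanol diet the genotypes overlapped. Over both diets there was a log2 fold change of 1.01 (SE 0.24), edgeR adjusted p = 0.0297, a call that was lost without WT con 1, WT con 2, WT con 3, Ahr HKO con 1 or Ahr HKO con 3. These counts cover the whole gene, including the exons outside the deleted one, so they check nothing about the deletion, and the genotype is that of the labels. Ahr lies on chromosome 12 at 35497979 to 35534989 (GRCm38). None of the other 33 tested genes that start within 5 Mb of it was called, and their median log2 fold change was -0.08.

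Of the 14038 tested genes, 612 were called over both diets (4.36%), 284 higher (2.02%) and 328 lower (2.34%) in Ahr HKO. In 608 of them (4.33% of tested genes) the sign was the same on control and ethanol diet, 281 higher and 327 lower. A call in a model with one genotype term nearly requires this, so the 608 are no sign of stability. The 4 exceptions, named after their values were seen, were Mt4, Tm4sf20, Mybpc1 and Slc7a11, whose log2 fold change was 0 on one of the diets. Within each diet alone, the genotypes differed in 2782 genes on control diet (19.8%), 1353 higher (9.64%) and 1429 lower (10.2%). On ethanol diet 145 genes were called (1.03%), 94 higher (0.67%) and 51 lower (0.363%). Of the 612 genes, 483 were also called on control diet, 47 on ethanol diet and 32 on both (0.228% of tested genes), while 114 were called on neither. The 32 comprised 25 higher and 7 lower genes.

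The genotype effects of the diets had little in common across the transcriptome. The WT and Ahr HKO livers of the control diet and those of the ethanol diet share no library. Of the 2782 genes called on control diet, 1412 (50.8%) had the same sign on ethanol, against 7106 of all 14038 tested genes (50.6%). Across all tested genes the Pearson r between the log2 fold changes was 0.03, a description, since genes are not independent replicates. Genes whose levels did not overlap between genotypes the same way on both diets numbered 853 (6.08%), 472 higher (3.36%) and 381 lower (2.71%), against 951 (6.77%) that did so in opposite ways. The genotype effect differed between diets (interaction, edgeR adjusted p below 0.05) in 3137 genes (22.3%), of which 136 were among the 612. For the 612, the median size of the log2 change was 1.10 on control diet and 0.67 on ethanol diet, against 0.37 and 0.23 over all tested genes.

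**Figure D1:**
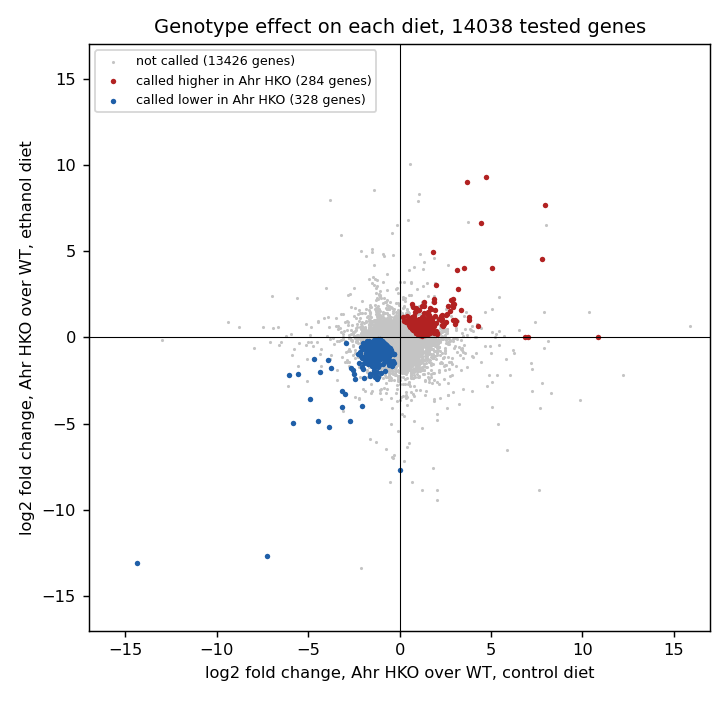
Log2 fold change of Ahr HKO over WT on control diet (x axis) and on ethanol diet (y axis) for the 14038 tested genes, with the 284 genes called higher and the 328 called lower over both diets in colour. The uncalled genes form a cloud without a slope (Pearson r over all genes 0.03), and the called genes lie in the quadrants where both changes have one sign, apart from the 4 on an axis, as the model nearly requires.

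How many genes were called depended on single livers. Leaving out 1 library at a time gave 239 to 906 calls, and 191 of the 612 genes (102 higher, 89 lower) were called in all 12 of these fits. The count fell by more than 1.5 times without WT con 1 (295), WT con 2 (257), WT con 3 (239), Ahr HKO con 1 (301), Ahr HKO con 3 (296), Ahr HKO EtOH 2 (372) or Ahr HKO EtOH 3 (394). The balance of the calls moved with the setting: 46.4% of the calls were higher in the main fit and 33.3% with upper-quartile scaling. With limma, which changes the test and the unit as well, it was 20.5% on log2(FPKM + 0.1) and 54.0% on quantile-normalized log2(FPKM + 1). Ranges given beside gene list counts below are over the 12 fits without 1 library.

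**Figure D2:**
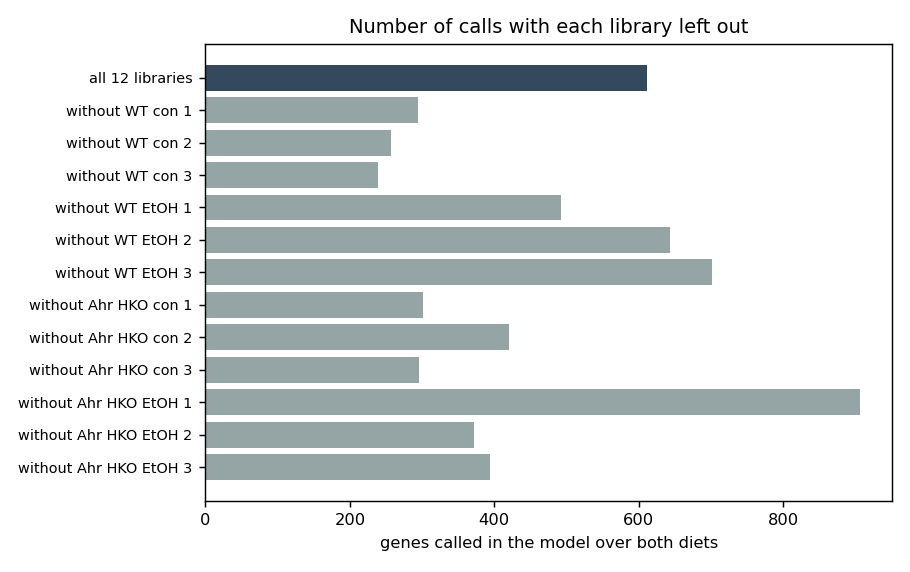
Number of genes called over both diets with all 12 libraries (612, dark bar) and with each library left out in turn (grey bars). The count is lowest without WT con 3 (239) and highest without Ahr HKO EtOH 1 (906).

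The genes that differed most on both diets were chosen among called genes whose levels did not overlap between genotypes on either diet, by the smaller of their 2 within-diet changes. The 12 leading higher genes were Ctse, Hist1h2bl, Fam107a, Slc10a2, Hist1h2bk, Erdr1, Plin4, Ttll8, Pfkfb3, Scara5, Il1r1 and Mbd1. The 12 leading lower genes were Krt23, Dsg1c, Extl1, Rec8, Prss8, 4931408D14Rik, Tuba8, Pbx4, Cables1, Ccdc3, Sult1c2 and Nrxn2. Because these values chose them, the values are a description, and adjusted p-values are over all tested genes. All but 3 of the 24 were called in every fit without 1 library, the 3 being Scara5, Krt23 and Pbx4. With limma on quantile-normalized log2(FPKM + 1), 6 of the 12 lower genes were not called (Krt23, Rec8, Pbx4, Cables1, Ccdc3 and Nrxn2).

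Ctse encodes cathepsin E, an aspartic protease of immune and gut epithelial cells. It was nearly absent from WT livers, at 0.0873, 0 and 0.123 CPM on control and 0.340, 0.0954 and 0.0637 CPM on ethanol diet. In Ahr HKO it reached 17.9, 12.5 and 22 CPM and 38.8, 34.5 and 26.7 CPM. Every Ahr HKO liver was far above every WT liver on each diet, and over both diets there was a log2 fold change of 7.79 (SE 0.41), edgeR adjusted p = 4.06e-06. Ctse lies on chromosome 1 at 131638314 to 131675507 (GRCm38).

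Slc10a2 encodes the apical sodium-dependent bile acid transporter, which takes bile acids up in ileum and bile ducts. Its WT levels were 10.4, 19.6 and 25.4 CPM on control and 1.47, 6.42 and 6.86 CPM on ethanol diet, against 209, 95.4 and 204 CPM and 41.2, 24.2 and 37.7 CPM in Ahr HKO. Every Ahr HKO liver was above every WT liver of its diet, and within each genotype the ethanol-fed livers lay below the control-fed ones. Over both diets there was a log2 fold change of 3.00 (SE 0.38), edgeR adjusted p = 0.00280.

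Il1r1 is the signalling receptor of interleukin-1. It stood at 43.6, 50.8 and 30.03 CPM in WT con and 234, 252 and 297 CPM in Ahr HKO con. On ethanol the WT livers ranged from 11.9 to 52.9 CPM and the Ahr HKO livers from 81.1 to 135 CPM. The lowest Ahr HKO liver was thus above the highest WT liver on both diets, with a log2 fold change of 2.24 (SE 0.32), edgeR adjusted p = 0.00533.

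Plin4, a lipid droplet coat protein, rose as well (log2 fold change 2.43, SE 0.35, edgeR adjusted p = 0.00533), and Pfkfb3, which makes the fructose 2,6-bisphosphate that drives glycolysis, changed by a log2 of 2.04 (SE 0.34). Hist1h2bk and Hist1h2bl, H2B histone genes of the cluster on chromosome 13, were higher on both diets, Hist1h2bk at 1.29, 1.80 and 1.17 CPM in WT con and 13.6, 10.5 and 8.75 CPM in Ahr HKO con. Histone genes and Erdr1 have near-identical copies among which reads can be split, so their values are uncertain.

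Among the lower genes, Prss8 (prostasin, a membrane serine protease of epithelia) was 10.5, 7.75 and 8.38 CPM in WT con and 1.62, 2.90 and 1.19 CPM in Ahr HKO con. On ethanol it was 15.4, 7.82 and 13 CPM in WT and 6.75, 2.45 and 3.83 CPM in Ahr HKO. The genotypes did not overlap on either diet, and over both diets there was a log2 fold change of -1.84 (SE 0.30), edgeR adjusted p = 0.00908. Dsg1c, a desmosomal cadherin, had a log2 fold change of -2.30 (SE 0.32), edgeR adjusted p = 0.00475. Nrxn2, a neurexin cell adhesion protein, was 1.29, 1.98 and 1.66 CPM in WT con and 0.441, 0.461 and 0.363 CPM in Ahr HKO con, with a log2 fold change of -1.56 (SE 0.20), edgeR adjusted p = 0.00283, against -0.21 with limma on quantile-normalized log2(FPKM + 1), where it was not called. Sult1c2, a cytosolic sulphotransferase, changed by a log2 of -1.61 (SE 0.28).

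**Figure D3:**
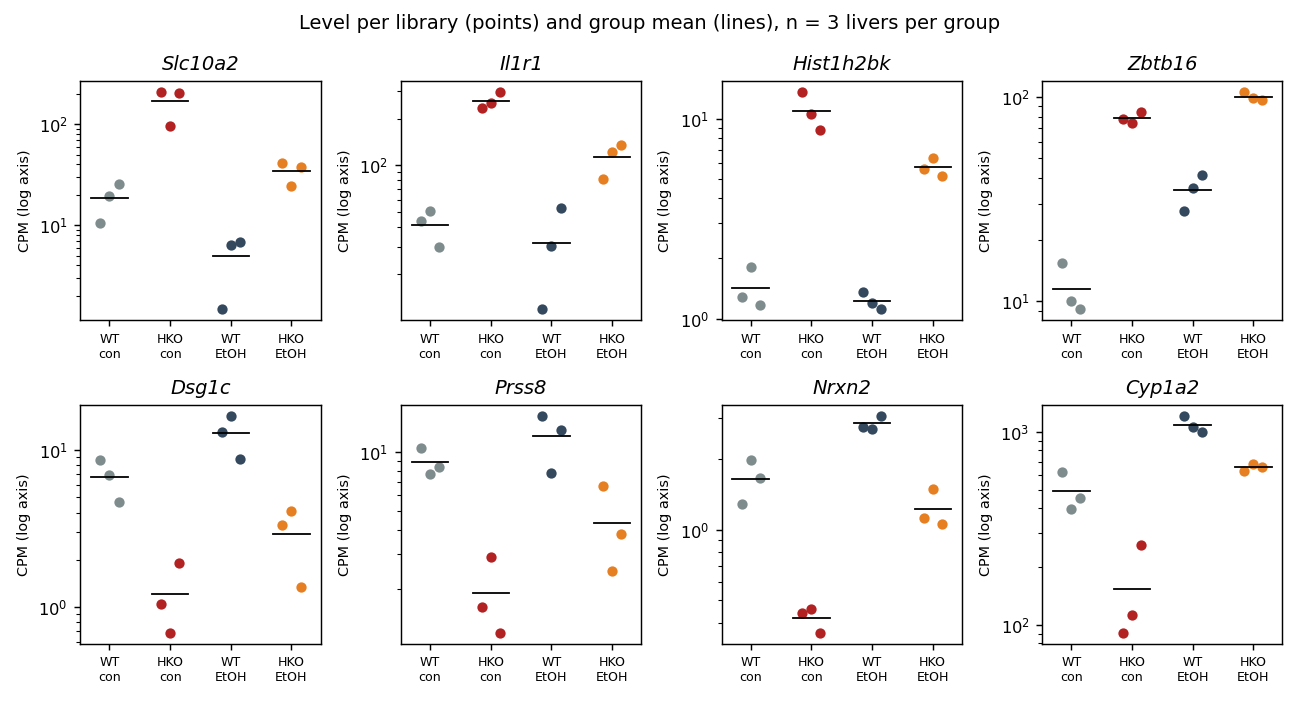
CPM per library (points, log axis) and group mean (line) of 8 genes in the 4 groups, 3 livers each. Slc10a2, Il1r1, Hist1h2bk and Zbtb16 lie higher in both Ahr HKO groups, and Dsg1c, Prss8, Nrxn2 and Cyp1a2 lower, without overlap within a diet.

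To set the leading genes beside the AhR recognition letters, the RefSeq promoter windows (GRCm38, 250 bases before to 50 after the start) were searched on both strands for GCGTG, the AhR core, and for the longer TNGCGTG that contains it. TNGCGTG was found in 8.05% of 11127 promoters of tested genes and GCGTG in 49.5%. Promoters were found for 221 of the 284 higher and 243 of the 328 lower genes, fewer than 80% of either, so a comparison of shares between these sets is void. Of the leading genes, Ctse, Erdr1, Scara5, Mbd1, Dsg1c, Prss8, Cables1 and Nrxn2 are left out of what follows. Among the remaining leading genes, 2 had TNGCGTG and the others had none, so the 2 do not stand for the leading genes. Shown are these 2 and Cyp1a1 with GCGTG, the match in capitals (given as its reverse complement where it lies on the other strand). They are Slc10a2 at chr8:5105238-5105537 on the minus strand, Il1r1 at chr1:40224830-40225129 on the plus strand and Cyp1a1 at chr9:57697363-57697662 on the plus strand. A match is a description and no evidence of binding.
Slc10a2: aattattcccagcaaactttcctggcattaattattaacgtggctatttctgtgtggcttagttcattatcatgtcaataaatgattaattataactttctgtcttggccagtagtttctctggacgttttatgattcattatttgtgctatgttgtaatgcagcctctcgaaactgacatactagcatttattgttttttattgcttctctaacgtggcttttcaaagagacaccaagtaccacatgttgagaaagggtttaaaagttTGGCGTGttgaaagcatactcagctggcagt
Il1r1: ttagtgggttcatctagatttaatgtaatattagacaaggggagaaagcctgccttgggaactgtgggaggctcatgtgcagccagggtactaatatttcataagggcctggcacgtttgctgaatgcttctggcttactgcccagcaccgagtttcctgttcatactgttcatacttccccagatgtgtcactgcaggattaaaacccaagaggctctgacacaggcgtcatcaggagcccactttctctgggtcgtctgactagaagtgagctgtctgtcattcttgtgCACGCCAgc
Cyp1a1: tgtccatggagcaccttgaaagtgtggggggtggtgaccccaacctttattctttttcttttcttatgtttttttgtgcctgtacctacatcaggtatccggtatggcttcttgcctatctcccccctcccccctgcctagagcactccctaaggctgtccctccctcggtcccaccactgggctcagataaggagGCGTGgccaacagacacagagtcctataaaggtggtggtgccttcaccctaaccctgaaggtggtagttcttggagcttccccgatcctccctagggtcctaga

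The known AhR targets moved unevenly. Of 20 tested members of the list, 3 were called lower and none higher (1 lower without WT con 1, WT con 3, Ahr HKO con 1, Ahr HKO EtOH 2 or Ahr HKO EtOH 3), and 5 of 20 had a positive log2 fold change. Cyp1a2, a pericentral oxidase, was 617, 398 and 456 CPM in WT con and 90.7, 112 and 258 CPM in Ahr HKO con, and on ethanol 1212, 1061 and 992 CPM in WT and 629, 684 and 658 CPM in Ahr HKO. All Ahr HKO livers were below all WT livers on the same diet. Over both diets there was a log2 fold change of -1.20 (SE 0.27), edgeR adjusted p = 0.0245, and the call was lost without WT con 2 or WT con 3. Nqo1, a quinone reductase, was also called lower (log2 -0.96, SE 0.24), as was Htatip2 (log2 -0.91, SE 0.22), and their calls were lost in 8 and 5 of the 12 fits. Cyp1a1, the classical target, was low in every library, from 0.204 to 1.67 CPM. Over both diets it did not pass the test (log2 fold change 0.67, SE 0.34, edgeR adjusted p = 0.226). On control diet alone it was called higher in Ahr HKO (log2 fold change 1.495, edgeR adjusted p = 0.0458). Its levels there were 0.349, 0.214 and 0.204 CPM in WT and 0.898, 0.444 and 0.827 CPM in Ahr HKO, without overlap. On ethanol diet its log2 fold change was -0.04 (edgeR adjusted p = 0.953). The difference between diets did not pass (interaction, edgeR adjusted p = 0.0531). Of the AhR complex, the chaperone Hsp90aa1 rose (log2 fold change 1.60, SE 0.24, edgeR adjusted p = 0.00590), in addition to Ahr, and 2 of 6 tested members were called.

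Genes known to respond to glucocorticoids rose in part. Of 22 tested, 7 were called higher (4 to 8 without 1 library, and 4 without WT con 1, WT con 2, WT con 3, Ahr HKO con 1 or Ahr HKO EtOH 2) and 1 lower, Serpina6, the corticosteroid carrier of plasma, and the median log2 fold change was 0.90 against -0.02 for all tested genes. Zbtb16, a zinc-finger repressor, was 15.3, 10.1 and 9.14 CPM in WT con and 77.6, 74 and 84.4 CPM in Ahr HKO con, then 27.6, 35.6 and 41.6 CPM and 106, 98.8 and 95.9 CPM on ethanol. Genotypes were fully separated on each diet (log2 fold change 2.14, SE 0.24, edgeR adjusted p = 0.00132), and the effect was larger on control diet (interaction, edgeR adjusted p = 0.00753). Fkbp5, a co-chaperone of the glucocorticoid receptor, had a log2 fold change of 1.74 (SE 0.27), edgeR adjusted p = 0.00663. Tat, the first enzyme of tyrosine breakdown, had a log2 fold change of 1.67 (SE 0.27), edgeR adjusted p = 0.00817, with nearly equal log2 fold changes of 1.71 on control and 1.62 on ethanol diet. Pck1, of gluconeogenesis, rose to a lesser degree (log2 fold change 0.90, SE 0.17, edgeR adjusted p = 0.0142). Zbtb16, Fkbp5, Tat and Pck1 kept their calls in every fit without 1 library, so they were steadier than the count of the list. On control diet alone, 13 of the 22 were called higher (9.64% of all tested genes), with a median of 1.32. On ethanol diet 3 were (0.67% of all tested genes), with a median of 0.42.

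The unfolded protein and integrated stress response is the set of genes by which a cell answers misfolded protein in the endoplasmic reticulum and amino acid shortage. Of 28 tested, 8 were called higher and none lower, with a median log2 fold change of 0.63 and the same sign on both diets in 20. The 8 were chaperones and other endoplasmic reticulum proteins (Hspa5, Hyou1, Dnajb11, Creld2, Manf, Herpud1, Sel1l) and Psph of serine synthesis, whereas Atf4, Ddit3 and Trib3 were not called. Creld2 stood at 29.3, 43.8 and 23.8 CPM in WT con and 535, 135 and 336 CPM in Ahr HKO con. On ethanol it stood at 12.3, 53.3 and 65.9 CPM in WT and 61.6, 217 and 112 CPM in Ahr HKO, where the genotypes overlapped. Over both diets there was a log2 fold change of 2.47 (SE 0.55), edgeR adjusted p = 0.0246. This count was unsteady, since 1 to 16 members were called without 1 library: 1 without WT con 1, WT con 2 or WT con 3, 2 without Ahr HKO EtOH 2, 3 without Ahr HKO con 1 or Ahr HKO con 3, 5 without WT EtOH 1 or Ahr HKO EtOH 3, 13 without Ahr HKO EtOH 1 and 16 without WT EtOH 3. On control diet alone, 20 of the 28 were called higher (9.64% of all tested genes), with a median of 1.11. On ethanol diet alone, none of the 28 was called higher and 1 was called lower, with a median of 0.31.

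Of 19 tested genes of IL-6 and STAT3 signalling, 5 were called higher and none lower (3 to 9 without 1 library). The count was 3 without WT con 1, WT con 2, WT con 3 or Ahr HKO con 3, 9 without WT EtOH 2 and 8 without Ahr HKO EtOH 1. The called genes were Il6ra, Cebpd, Nfkbiz, Stat3 and Il1r1. The last is the interleukin-1 receptor described above, listed here although it does not bind IL-6, and is also among the leading higher genes. Il6ra, the IL-6 receptor alpha chain, was 39.3, 35.9 and 42.5 CPM in WT con and 113, 73.7 and 72.6 CPM in Ahr HKO con, and 30.5, 36.5 and 35.5 CPM and 76.7, 71.3 and 58.8 CPM on ethanol, with no overlap and a log2 fold change of 1.07 (SE 0.12), edgeR adjusted p = 0.00149. Of 24 acute phase genes 4 were called higher (2 to 4 without 1 library, and 2 without WT EtOH 1, Ahr HKO EtOH 3 or any 1 of the 6 control-diet livers). Saa4, a constitutive serum amyloid, was the steadiest (log2 fold change 1.00, SE 0.15, edgeR adjusted p = 0.00570). Lrg1 and Crp passed narrowly and lost the call in 11 and 10 of the 12 fits. A2m was 30.8, 5.02 and 9.22 CPM in Ahr HKO con and at or near the 3-read floor in all other livers, so its call rests on the control diet. On control diet alone, 12 of the 24 acute phase genes were called higher (9.64% of all tested genes), with a median of 1.11. On ethanol diet 1 was (0.67% of all tested genes), with a median of 0.008. Of the 19 IL-6 and STAT3 genes, 11 were called higher on control and 1 on ethanol diet, with medians of 1.05 and 0.54. Both lists thus moved mostly on control diet.

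Interferon-stimulated genes are the antiviral and signalling genes switched on by interferons. Of 29 tested, 7 were called lower and none higher, 3 had a positive log2 fold change, and the median was -0.57. Usp18, which restrains interferon signalling, had a log2 fold change of -1.36 (SE 0.27), edgeR adjusted p = 0.0154, and was called in every fit without 1 library. Ifit2, Ifit3, Oasl2, Ddx58, Gbp3 and Cxcl10 were the other called members. Cxcl10, a chemokine, was 18.1, 15.3 and 1.81 CPM in WT EtOH and 1.91, 2.87 and 1.94 CPM in Ahr HKO EtOH, so WT EtOH 3 lay among the Ahr HKO livers, and its call was lost in 11 of 12 fits. The count was 3 to 11 without 1 library: 3 without WT con 1, WT con 3, Ahr HKO con 2, Ahr HKO con 3, Ahr HKO EtOH 2 or Ahr HKO EtOH 3, 4 without WT con 2, WT EtOH 1, WT EtOH 2 or Ahr HKO con 1, and 11 without WT EtOH 3.

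**Figure D4:**
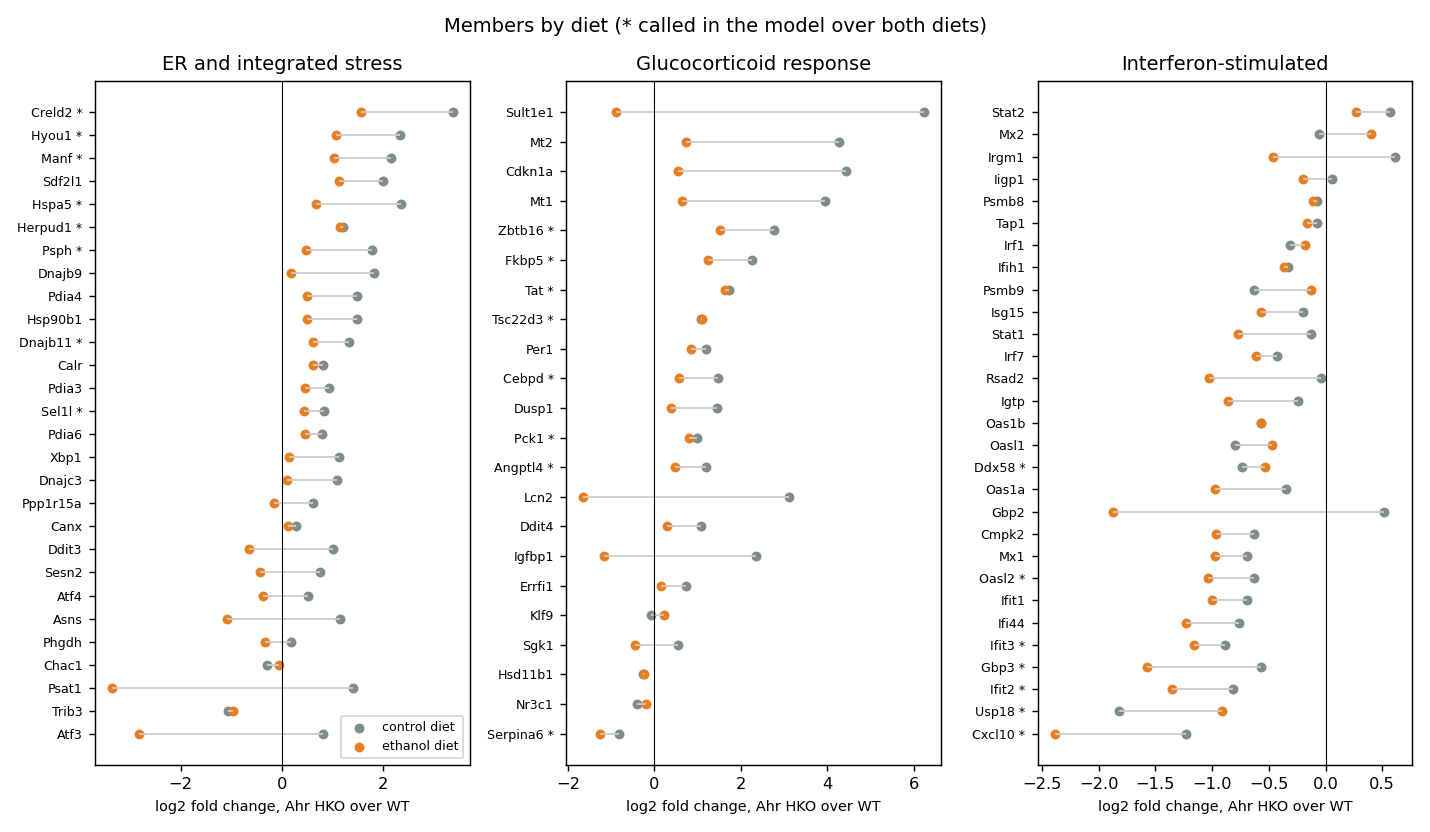
Log2 fold change of Ahr HKO over WT on control diet (grey) and ethanol diet (orange) for the tested members of 3 gene lists, with an asterisk on members called over both diets. The median over both diets is 0.63 for the stress list, 0.90 for the glucocorticoid list and -0.57 for the interferon list.

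Antioxidant genes of the NRF2 response gave 4 lower calls of 20 (1 to 5 without 1 library), Nqo1, Gstm3, Slc7a11 and Ephx1. Gstm3 lost its call in 10 of the 12 fits. The count was 2 without WT con 1, Ahr HKO con 1 or Ahr HKO con 2, and 1 without WT con 3, WT EtOH 1, WT EtOH 2, Ahr HKO EtOH 2 or Ahr HKO EtOH 3. Ephx1, microsomal epoxide hydrolase, was 1027, 920.3 and 895 CPM in WT EtOH and 462, 587 and 473 CPM in Ahr HKO EtOH, with a log2 fold change of -0.69 (SE 0.13), edgeR adjusted p = 0.0127. Slc7a11, the cystine transporter, was detected in the WT EtOH livers alone, at 0.566, 0.461 and 0.239 CPM, with no read in the other 9 libraries, and it was not called by DESeq2, in the 4-group model, with the replicate block or with limma on either FPKM scale. Of targets of the nuclear receptors CAR and PXR, 3 of 28 were called lower (0 to 4 without 1 library: 0 without WT con 1 or Ahr HKO con 1, and 1 without WT con 3 or Ahr HKO con 2), among them the coumarin hydroxylase Cyp2a5 (log2 fold change -1.27, SE 0.28, edgeR adjusted p = 0.0245). Of pericentral genes, 3 of 20 were called lower, Cyp1a2 and the Wnt pathway genes Notum and Nkd1 (1 to 4 without 1 library, and 1 without WT con 2, WT con 3 or Ahr HKO con 3). Notum lost its call in 9 of the 12 fits, with the replicate block and with no filter on low counts.

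Of the genes of PP2A and AMPK, the phosphatase and kinase of the study's account, 2 of 20 were called, both lower: Prkaa2, an AMPK catalytic subunit (log2 fold change -0.59, SE 0.12, edgeR adjusted p = 0.0198), and Ppp2r5a, a regulatory subunit of PP2A (log2 fold change -0.61, SE 0.15, edgeR adjusted p = 0.0309). Prkaa2 lost its call in 5 and Ppp2r5a in 9 of the 12 fits, and neither was called without WT con 1, WT con 2, Ahr HKO con 1 or Ahr HKO con 3. Ppp2r2d had a log2 fold change of 0.44 on control and -0.34 on ethanol diet and 0.05 over both, and the genotype effect differed between diets (interaction, edgeR adjusted p = 0.00499). Of 40 tested autophagy genes none was called over both diets by edgeR or DESeq2 (11 at an unadjusted edgeR p below 0.05, which 27.6% of all tested genes had; 0 to 1 called in each direction without 1 library), and Sqstm1, Map1lc3b and Ulk1 had log2 fold changes of 0.01, 0.23 and 0.22. No member of fatty acid oxidation (29), cholesterol synthesis (24), the respiratory chain (34), the kynurenine pathway (11) or the growth hormone axis (12) was called over both diets by the main edgeR fit or DESeq2. At an unadjusted edgeR p below 0.05 were 3, 1, 1, 2 and 2 members, against 27.6% of all tested genes. On control diet alone, 8 cholesterol and 4 kynurenine genes were called lower (10.2% of all tested genes). The medians on control and ethanol diet were -0.56 and 0.31 for cholesterol synthesis, -0.30 and 0.52 for the kynurenine pathway. Other settings called at most 1 growth hormone gene in each direction. Without Ahr HKO EtOH 1, 2 cholesterol genes were called lower. Tdo2, which opens the kynurenine pathway, had a log2 fold change of 0.23 (SE 0.27). Ido1 had no read in any library. The 23 male-biased liver genes gave no call by edgeR (7 higher in the 4-group model, 2 by DESeq2, 2 at an unadjusted edgeR p below 0.05), with a median log2 fold change of -0.86 on control and 2.06 on ethanol diet. Of the 23, 19 differed between diets, against 22.3% of all tested genes.

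In the other lists few members were called. Of all tested genes 2.02% were called higher and 2.34% lower, so 1 call in a list of this size is no result about the list. Of 24 genes of the urea cycle and amino acid breakdown, 3 were higher, Tat, Sdsl (log2 fold change 0.94, SE 0.18) and Aass (0.67, SE 0.15). Among 20 genes of gluconeogenesis and glycolysis, Pfkfb3 and Pck1 were higher and the pyruvate kinase Pklr was lower (-1.04, SE 0.27). Sphingolipid enzymes gave 1 higher call, the ceramidase Acer2, and 1 lower, the sphingomyelin synthase Sgms2, of 24. The list of bile acid genes gave Cyp2c70 higher (0.73, SE 0.19) and the FGF co-receptor Klb lower (-0.89, SE 0.23) of 20. The count of lower bile acid genes was 5 without Ahr HKO EtOH 1, 3 without WT EtOH 2, 1 without WT EtOH 3 and 0 in the other fits without 1 library. Lpin1, a phosphatidate phosphatase, was the 1 call of 21 lipogenic genes (1.34, SE 0.31), where 3 others were called lower without Ahr HKO EtOH 1, and Lpcat3, which remodels phospholipids, the 1 of 25 phosphatidylcholine enzymes (-0.61, SE 0.14). Lysosomal hydrolases Glb1 and Neu1 were the 2 lower calls of 33 lysosome genes (0 to 3 without 1 library, and 0 without Ahr HKO con 3). Of 18 iron genes the exporter Slc40a1 (-0.89, SE 0.16) and Hfe2 (hemojuvelin) were lower, and of 25 cell cycle genes Gadd45a, Ccnb2 and Cdkn2c were lower (1 to 3 without 1 library). Nfil3, a clock-linked repressor, rose (1.00, SE 0.19) as the 1 call of 19 clock genes. Cyp17a1, of steroid synthesis, was the 1 lower call of 17 female-biased genes. Cfd (adipsin) was the 1 call of 34 complement and coagulation genes and also marks fat, and it was 34.7, 0.512 and 2.26 CPM in Ahr HKO con and 0 in all WT EtOH livers, and its call was lost without Ahr HKO con 1. Of these genes, Sdsl, Pck1, Cdkn2c, Slc40a1, Nfil3, Tat and Pfkfb3 were called in every fit without 1 library, and each of the others lost its call in at least 1.

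**Figure D5:**
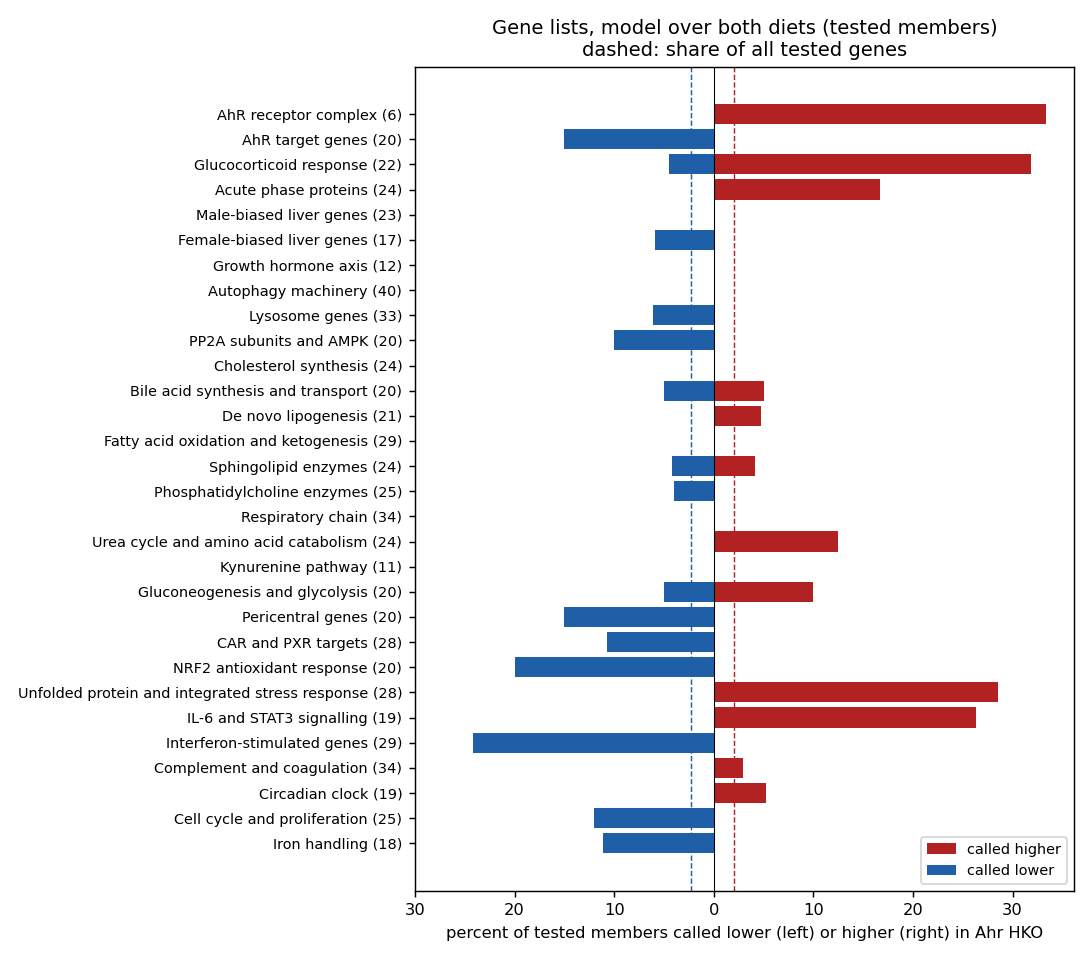
Percent of the tested members of each gene list (number in brackets) called higher (red, right) or lower (blue, left) in Ahr HKO over both diets; dashed lines mark the shares of all tested genes, 2.02% and 2.34%. Bars reach furthest right for the AhR complex (33.3% of 6) and the glucocorticoid list (31.8% of 22), and furthest left for the interferon list (24.1% of 29).

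Markers of other liver cells were examined because whole liver was sequenced. In such samples fewer cells of a type and less RNA per cell cannot be told apart. Of 12 lymphocyte markers 4 were called lower (2.34% of all tested genes), among them Ms4a1, Cd79a and Cd79b, which B cells express (1 to 4 without 1 library: 2 without WT con 1 and 1 without WT con 3). None was called with limma on quantile-normalized log2(FPKM + 1), or with at least 10 counts required in every library. Cd79a, of the B-cell receptor, was 0.764, 0.910 and 0.899 CPM in WT con and 0.261, 0.341 and 0.161 CPM in Ahr HKO con, 1.28, 1.00 and 0.891 CPM in WT EtOH and 0.439, 0.355 and 0.293 CPM in Ahr HKO EtOH. Each genotype was separate on each diet (log2 fold change -1.63, SE 0.24, edgeR adjusted p = 0.00570), at levels not far above the floor. The summed level of the lymphocyte markers overlapped between genotypes on control diet (17.0 to 22.5 CPM in WT, 13.2 to 31.6 CPM in Ahr HKO) and was lower in Ahr HKO on ethanol (8.43 to 12.4 against 12.9 to 20.7 CPM). Of 12 markers of stellate cells and fibroblasts, 2 were lower, the collagens Col3a1 (log2 fold change -1.18, SE 0.22, edgeR adjusted p = 0.0127) and Col1a2. None of the 12 Kupffer cell, 12 endothelial, 7 bile duct, 6 neutrophil or 6 red cell markers tested was called over both diets by edgeR (0, 1, 2, 1 and 0 at an unadjusted p below 0.05), and DESeq2 called 1, an endothelial marker. Kupffer cell markers had a median log2 fold change of 0.46 on control and -0.95 on ethanol diet, and 8 of 12 differed between diets (22.3% of all tested genes). Neutrophil markers had medians of 1.76 and -0.97, with 4 of 6 called higher on control diet (9.64% of all tested genes), and 5 of 6 differed between diets. Their summed level was 4.28 to 6.66 CPM in WT con and 13.5 to 16.5 CPM in Ahr HKO con. On ethanol it was 7.31 to 13.5 CPM in WT and 4.82 to 5.95 CPM in Ahr HKO. The part of these cell types in the results above was not tested. Hepatocyte markers summed to 76580 CPM or more in every liver, and of 10 tested, 2 were called higher, Tat and the hepatocyte nuclear factor Hnf4a (log2 fold change 0.75, SE 0.11, edgeR adjusted p = 0.00533).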

How the data were processed

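Poly-A RNA of 12 mouse livers (TruSeq Stranded mRNA, NovaSeq, paired 100-base reads) was sequenced and processed by the authors. The submitters' processing notes name FastQC 0.11.7, Trimmomatic 0.38, HISAT2 2.1.0, Bowtie2 2.3.4.1, StringTie 1.3.4d and the build mm10. The authors deposited one table of read counts per gene, FPKM and TPM for each library, and the deposited TPM values were not used here. Groups were taken from the sample labels. The 3 libraries of a group are separate mice per the labels and the study's methods, chosen from larger groups. P-values of the within-diet fits and of the interaction measure the spread between these mice. The model over both diets has no interaction term, so its p-values also take in differences of the genotype effect between diets.

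Counts were tested with edgeR 4.0.16 (R 4.3.3): TMM scaling, the default filter on low counts over the 4 groups and quasi-likelihood tests with Benjamini-Hochberg adjustment over all 14038 genes. The model over both diets had diet and genotype as terms. The within-diet fits used 6 libraries each, and the interaction a term of its own. SE is the log2 fold change divided by the square root of F. FPKM values deposited by the authors, on the scale log2(FPKM + 1) after quantile normalization and log2(FPKM + 0.1), were tested with limma 3.58.1, and counts with DESeq2 1.42.0, as alternatives. Depth was 46306518 to 74336255 reads on genes per library.

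The members, gene lists and tests were chosen with earlier results of these data known. Named genes were, first, called genes with 1 sign and no overlap of CPM on each diet and a mean count of at least 50, the 12 higher and 12 lower by the smaller within-diet log2 change. Added were genes of the study's account, at most 4 called members of each list by size of change, and the 5 genes with the largest interaction, opposite signs and no overlap on each diet. Gene lists are described by counts and medians without a set test. The values of 1 list member are not reported here. Gene positions and promoters are from RefSeq (GRCm38.p6), matched by gene ID, with a position for 14012 of 14038 tested genes.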

Additional observations from a re-analysis of the deposited data

Results flagged for a closer look

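In 21 named genes the genotype effect differed between the diets by the interaction test (edgeR adjusted p below 0.05). The values below are the log2 fold change on ethanol diet minus that on control diet. Cyp2a4 (-13.58), Timp1 (-10.37), Ly6d (-9.08) and Akr1b7 (-8.23) were higher in Ahr HKO on control diet and lower on ethanol diet, and Hsd3b5 (11.72), a male-biased steroid enzyme, the opposite. Cyp2a4 was at 0 in all WT con livers, Timp1 at 0 to 0.184 CPM in WT con and 0 to 0.0463 CPM in Ahr HKO EtOH, Akr1b7 at 0 to 0.125 CPM in WT con, and Hsd3b5 at 0 to 0.605 CPM in WT EtOH. The fitted values of these 4 genes depend on the prior count and are no measure of size. Of genes called over both diets, the difference was 1.497 for Notum, -1.28 for Gstm3, -1.26 for Zbtb16, -1.23 for Ahr, -1.16 for Htatip2, 1.01 for Sgms2, -0.98 for Acer2, -0.97 for Crp, -0.94 for Nfil3, 0.72 for Ppp2r5a, 0.68 for Neu1 and 0.66 for Lpcat3. Their log2 fold changes had one sign on both diets and differed in size, but of these genes Zbtb16 alone was called on each diet. Gstm3 and Htatip2 were called on ethanol diet alone, and the others on control diet alone. Crp, for example, had a log2 fold change of 0.14 on ethanol (edgeR adjusted p = 0.610). The shared sign thus does not show an effect on both diets. For genes of the study's account that were not called over both diets, the difference was -0.93 for Sqstm1, -0.78 for Ppp2r2d, 0.49 for Ppp2r5d and -0.37 for Ppp2r5c, with opposite signs on the diets.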

How the results depend on the processing

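The 612 calls over both diets (284 higher, 328 lower, 608 in one direction) became 1038 with DESeq2 (432, 606, 1002), 349 with the replicate block (172, 177, 349), 328 with limma on quantile-normalized log2(FPKM + 1) (177, 151, 328), 1184 in the 4-group model (502, 682, 989) and 1133 with no minimum fold change (620, 513, 1129). With limma on log2(FPKM + 0.1), 156 were higher and 604 lower. Of the 612, 605 were also called by DESeq2 and 293 by limma on quantile-normalized values. Control-diet calls fell to 1787 with limma on quantile-normalized values. Ethanol-diet calls, 145 in the main fit, were 1045 with DESeq2, 245 with the replicate block, 83 and 392 with limma (quantile-normalized and log2(FPKM + 0.1)) and 429 in the 4-group model, and calls on both diets, 32, were 175, 51, 19, 70 and 80. Without 1 library the calls over both diets ranged from 239 to 906 (121 to 396 higher, 118 to 510 lower, 239 to 900 in one direction), ethanol-diet calls from 10 to 193 and calls on both diets from 3 to 32. The cause of these shifts was not tested. The share of control-diet calls with the same sign on ethanol stayed between 45.7% and 55.2% in the fits without 1 library.

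The labels state no pairing of livers that share a replicate number. Of 18 same-number correlations of deviations from group means, 2 were above 0.1 (range -0.136 to 0.307), both between WT EtOH and Ahr HKO EtOH. With 3 livers a group such correlations cannot exclude a pairing. The replicate block lost 23 of the calls among 98 named genes, and limma on quantile-normalized values 23. Of the 57 named list members, 18 were called in every fit without 1 library. Uncalled genes near 0 changed sign: Sqstm1 (-0.049 with upper-quartile scaling, -0.0026 with at least 10 counts in every library, -0.073 with limma on log2(FPKM + 0.1), and -0.069 to 0.18 without 1 library), Ppp2r2d (-0.0050 with upper-quartile scaling, -0.048 with limma on log2(FPKM + 0.1), and -0.041 to 0.12 without 1 library), Ppp2r5c (-0.0071 with upper-quartile scaling and with limma on log2(FPKM + 0.1)) and Prkaa1 (-0.026 with limma on log2(FPKM + 0.1)). With 3 livers a group, small changes on ethanol diet may have been missed.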

Other observations

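Among genes that were present in some livers of a group and absent from others, 2 are given here, chosen after their values were seen. Others, such as Eno1b, C1rb and Atp6v0c-ps2, were present in some and absent or nearly so in other livers of both genotypes. The 2 therefore do not stand for this kind of gene, and how reads were assigned to such genes was not tested. Gm12070 had no read in the WT con livers, 174, 170.0 and 0 CPM in WT EtOH 1, 2 and 3, and 120 to 188 CPM in all 6 Ahr HKO livers. Klhdc7a had no read in the 6 Ahr HKO livers, 82.3, 0 and 67.9 CPM in WT con 1, 2 and 3, and 0, 24.5 and 30.4 CPM in WT EtOH 1, 2 and 3.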
